A study of Mus musculus with 9 samples.

Results

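The 10 genes described here encode nuclear coactivators that are known partners or substrates of CARM1, a protein arginine methyltransferase. They were chosen by symbol, with earlier results of these data known. They are Ep300, Crebbp, Ncoa1, Ncoa2, Ncoa3, Kmt2c, Kmt2d, Med12, Smarcc1 and Kdm6a, and all 10 were found among the 16428 genes of the table. All 10 had a mean normalized read count of at least 10 and so entered the test, which covered 14560 genes.

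RNA was measured by poly(A) sequencing in mouse embryonic fibroblasts, connective tissue cells grown from embryos. Every group carried a floxed Carm1 gene and ER-Cre, a Cre recombinase that 4-hydroxytamoxifen (4-OHT) switches on. The 3 CARM1i libraries came from cells given 1 uM of the CARM1 inhibitor TP-064 for 6 days, the 3 KO libraries from cells given 2 uM 4-OHT for 6 days, and the 3 WT libraries from the same kind of cells with no treatment. WT is therefore the label of floxed, Cre-carrying cells, no group received 4-OHT without the floxed gene, and none is labelled as vehicle, so 4-OHT and the deletion, or TP-064 and its solvent, cannot be told apart. The labels do not give the number of cell isolates or the age of the embryos. Nothing says that replicates were separate cultures, so the p-values rest on a spread between libraries that may be technical. KO and CARM1i are set against the same WT libraries.

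Libraries held 28657018 to 35842771 reads assigned to genes. All 8 fibroblast markers checked were present, with summed levels of 343563 to 373090 in CARM1i, 338240 to 355660 in KO and 366126 to 373621 in WT. These sums hide changes of single markers, of which 2 rose and 6 fell in KO, and 2 rose and 3 fell in CARM1i. Col1a1 averaged 17084 in CARM1i, 12075 in KO and 23155 in WT, and Fn1 averaged 133909 in CARM1i, 161679 in KO and 122653 in WT. Ptprc, Adgre1, Epcam, Cdh1, Krt8 and Sox2, which mark leukocytes, macrophages, epithelium and neural stem cells, are not listed in the table analysed here. The remaining 3 neural markers fell in KO, with summed levels of 5780 to 6564 in CARM1i, 5854 to 6183 in KO and 7518 to 7854 in WT. Epithelial Krt18 rose in KO, with 32.4 to 43.8 in CARM1i, 91.9 to 126 in KO and 23.3 to 48 in WT. The 4 listed macrophage markers summed to 294 to 323 in CARM1i, 292 to 334 in KO and 253 to 318 in WT. Of these 4, 1 rose and 1 fell in KO against WT. Cd68 averaged 50.2 in CARM1i, 86 in KO and 42.5 in WT, and Cd14 averaged 135, 109 and 147 in that order. The 4 endothelial markers summed to 239 to 262 in CARM1i, 288 to 341 in KO and 264 to 300 in WT. The part of these lists in the results was not tested. CARM1i replicate 3 stood apart from the rest of its group on the third principal component (-19.5, against 11 and 11.7), so some values that rest on it are also given without it. On that component WT replicate 3 (10.3) also lay apart from WT replicates 1 and 2 (-8.65 and -5.68). Carm1 itself averaged 1057 ± 64 normalized read counts in CARM1i cells, 758 ± 43 in KO cells and 1104 ± 34.1 in WT cells (SD, n = 3 each). Its reads were counted over the whole gene, and they do not separate the deleted part from the rest.

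Nuclear receptors and other DNA-bound activators recruit the p160 proteins, encoded by Ncoa1, Ncoa2 and Ncoa3. The p160 proteins carry the acetyltransferases p300 and CBP on one activation domain and CARM1 on another. CARM1 then methylates histone H3 and also p300, CBP and NCOA3 themselves, and it is known to methylate the Mediator subunit MED12 and the SWI/SNF subunit BAF155 (Smarcc1). Kmt2c and Kmt2d encode the enhancer H3K4 methyltransferases MLL3 and MLL4, and Kdm6a encodes UTX, the H3K27 demethylase of the same complex. The question put to these 10 genes was whether their RNA level differed when CARM1 was deleted or inhibited.

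Normalized read counts of the 10 genes lay close together in the 3 groups. In KO cells 2 of 10 were lower than in WT cells, Smarcc1 and Kdm6a, and none was higher, where 41.9% of all genes tested passed in that comparison, 20.5% lower and 21.4% higher. With edgeR these counts were also 2 and 0, with DESeq2 1 and 0, and over the 20 alternatives 1 to 2 were lower and 0 to 2 higher. By limma 3 members had an unadjusted p under 0.05 (48.9% of all genes), Smarcc1, Kdm6a and, higher, Kmt2d. In CARM1i cells none of the 10 passed against WT, where 19.1% of all genes did, 10.5% higher and 8.59% lower. Between the treatments, Smarcc1 was higher and Kmt2d lower in CARM1i than in KO, where 23.6% of all genes passed, 12.1% higher and 11.5% lower. These calls are by limma with adjustment over the 14560 genes, at an adjusted p under 0.05.

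Smarcc1 and Kdm6a were the members that fell in KO, and Kmt2d was the member that was lower in CARM1i than in KO. The sequence before their start sites is shown for that reason, from RefSeq (GRCm38.p6, the assembly behind mm10), 5′ to 3′ on the gene's strand and without bases that GENCODE M21 places in an exon. Capitals mark matches to any motif searched.

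Smarcc1 (chr9:110131774-110131979, plus strand): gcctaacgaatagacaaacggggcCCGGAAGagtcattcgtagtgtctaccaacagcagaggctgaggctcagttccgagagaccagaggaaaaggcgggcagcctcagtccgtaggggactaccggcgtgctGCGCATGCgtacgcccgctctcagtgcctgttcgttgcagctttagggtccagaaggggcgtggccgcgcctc
Kdm6a (chrX:18162325-18162574, plus strand): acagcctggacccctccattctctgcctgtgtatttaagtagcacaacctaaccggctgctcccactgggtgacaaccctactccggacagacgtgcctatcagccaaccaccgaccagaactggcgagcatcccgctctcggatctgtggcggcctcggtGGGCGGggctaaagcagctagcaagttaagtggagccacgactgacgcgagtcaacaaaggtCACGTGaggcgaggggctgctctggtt
Kmt2d (chr15:98871206-98871455, minus strand): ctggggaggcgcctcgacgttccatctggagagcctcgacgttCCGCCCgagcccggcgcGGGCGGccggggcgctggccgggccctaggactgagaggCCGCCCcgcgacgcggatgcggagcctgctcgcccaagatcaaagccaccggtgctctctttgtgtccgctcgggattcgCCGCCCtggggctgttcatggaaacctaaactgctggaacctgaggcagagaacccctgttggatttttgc

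RefSeq windows were found for 8 of the 10 genes, all but Ncoa2 and Ncoa3. Each motif was searched on both strands in the 250 bases before the start, exon bases included. The GC box, GGGCGG, to which SP1 binds, was in all 8 windows and in 32.7% of the 32851 windows of all genes. The 8 windows were 59.6 to 91.6% G and C, against a median of 52.4% over all windows. The Smarcc1 window alone among the 8 held the NRF1 core GCGCATGC (2.26% of all windows) and the ETS core CCGGAAG (6.91%). A second ETS match, 40 to 34 bases before the Smarcc1 start, and its GC box, 23 to 18 bases before it, lie in exon bases that are not printed. The Kdm6a window alone held the E-box CACGTG (6.02%), which overlaps no other match. The cyclic AMP response element TGACGTCA, the site of the CBP-recruiting factor CREB (1.55% of all windows), the CCAAT box (33.9%) and the E2F core TTTGGCGC (0.42%) were in none of the 8. A match of letters is a description and not a bound site. The Smarcc1 start used by RefSeq, 110132024, lies inside the GENCODE gene, whose span begins at 110117708. The RefSeq starts of Ep300 (81586214), Crebbp (4213404) and Med12 (101274091) also lie inside their GENCODE genes. All 250 window bases of Ep300 and of Crebbp lie in GENCODE exons, and so do their GC boxes.

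**Figure D1:**
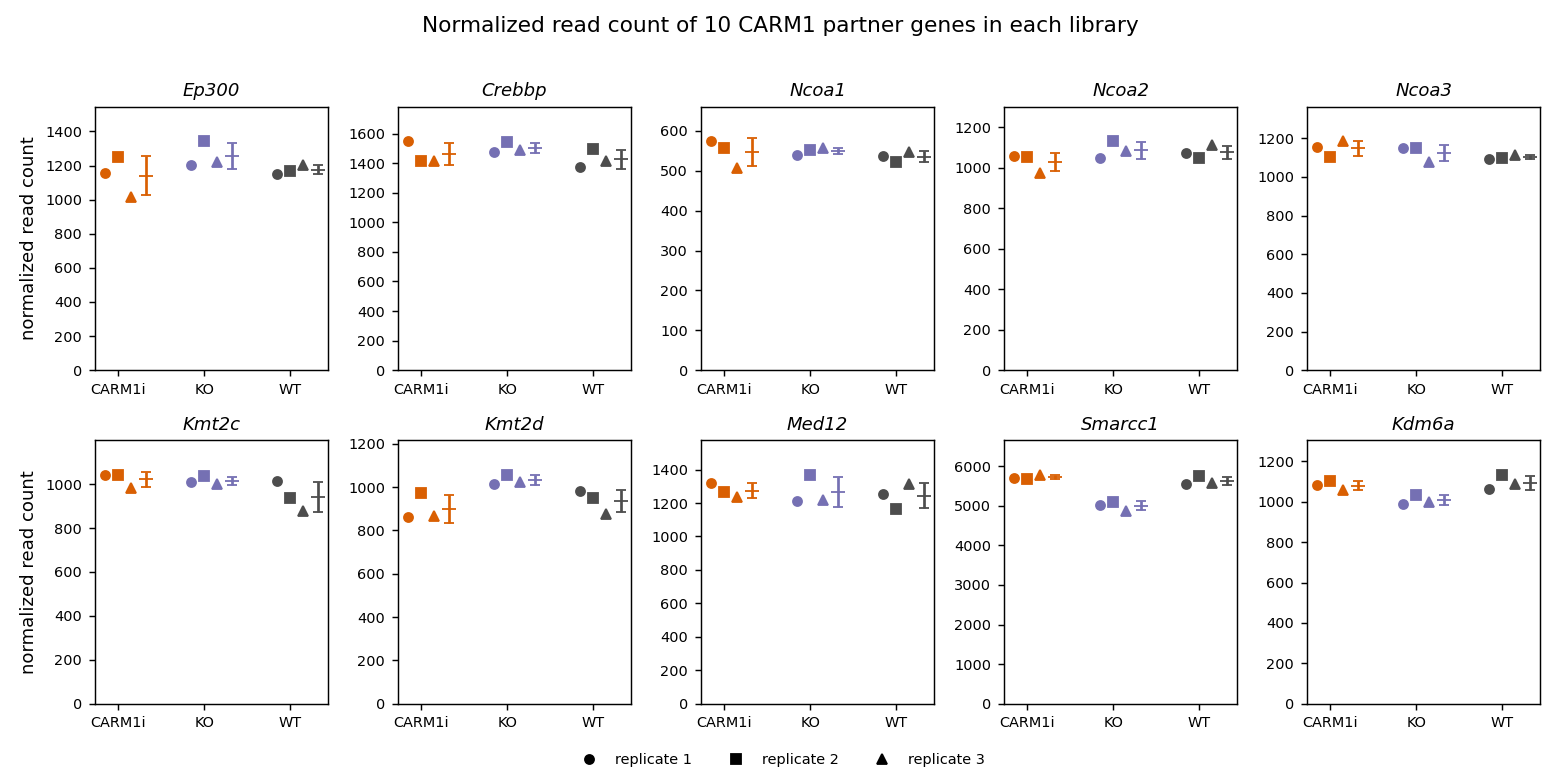
Normalized read count (y axes, from 0, a scale per gene) of each of the 10 genes in the CARM1i, KO and WT libraries (x axes), with the replicate number as the symbol and the group mean ± SD beside the points (n = 3). The KO points of Smarcc1 (4878 to 5099) and Kdm6a (988 to 1034) lie under all points of the other groups, and most other genes overlap across groups.

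Ep300 and Crebbp encode the paralogous acetyltransferases p300 and CBP, which write H3K27 acetylation at enhancers. Ep300 (ENSMUSG00000055024.12; mm10, chromosome 15, 81585351 to 81652077, plus strand) had 1155, 1250 and 1018 normalized read counts in CARM1i replicates 1 to 3, 1201, 1342 and 1221 in KO replicates 1 to 3, and 1151, 1171 and 1204 in WT replicates 1 to 3. The 3 groups overlapped, with KO replicate 2 the highest library and CARM1i replicate 3 the lowest. The KO mean was 107% and the CARM1i mean 97.1% of the WT mean. On the log2 scale the KO difference from WT was 0.09 ± 0.06 (SE; 95% interval -0.04 to 0.23) and the CARM1i difference -0.05 ± 0.06 (-0.18 to 0.09). Neither passed (adjusted p = 0.269 and 0.6807). Ep300 was also not called between CARM1i and KO (-0.14 ± 0.06, unadjusted p = 0.04484, adjusted p = 0.1348). That difference was -0.06 without CARM1i replicate 3, and without CARM1i replicate 2 it was -0.21 and passed (adjusted p = 0.0309).

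Crebbp (ENSMUSG00000022521.10; chromosome 16, 4081328 to 4213997, minus strand) had 1547, 1416 and 1417 normalized read counts in CARM1i, 1478, 1542 and 1490 in KO, and 1370, 1496 and 1415 in WT. The groups overlapped in every comparison. The difference from WT was 0.08 ± 0.05 in KO (95% interval -0.03 to 0.18, adjusted p = 0.2247) and 0.03 ± 0.05 in CARM1i (-0.07 to 0.13, adjusted p = 0.7045). The pair can also be set against each other within a library, as counts per kb of exon. Crebbp made up 57.5 ± 2.68% of the Crebbp and Ep300 level in CARM1i, 55.8 ± 0.923% in KO and 56.1 ± 1.11% in WT (SD, n = 3 each). CBP RNA was the larger share in all 9 libraries.

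None of the p160 genes passed in any comparison. Ncoa1, which encodes SRC-1 (ENSMUSG00000020647.10; chromosome 12, 4247362 to 4477182, minus strand), had 574, 558 and 508 normalized read counts in CARM1i, 540, 553 and 556 in KO, and 537, 522 and 549 in WT. Ncoa2, which encodes TIF2 (ENSMUSG00000005886.14; chromosome 1, 13139105 to 13374083, minus strand), had 1056, 1051 and 976 in CARM1i, 1046, 1130 and 1085 in KO, and 1071, 1046 and 1112 in WT. Ncoa3, which encodes the breast cancer coactivator AIB1 (ENSMUSG00000027678.17; chromosome 2, 165992636 to 166073242, plus strand), had 1155, 1105 and 1184 in CARM1i, 1148, 1148 and 1075 in KO, and 1094, 1100 and 1112 in WT. For each of the 3 genes the groups overlapped in all comparisons. Against WT the log2 differences in KO were 0.04 ± 0.06 for Ncoa1, 0.01 ± 0.05 for Ncoa2 and 0.03 ± 0.05 for Ncoa3. In CARM1i they were 0.03 ± 0.06, -0.07 ± 0.05 and 0.06 ± 0.05 in the same gene order. The smallest adjusted p among these 6 was 0.4129. Their 95% intervals reached no lower than -0.18 (Ncoa2 in CARM1i) and no higher than 0.17 (Ncoa1 in KO), and CARM1i replicate 3 was the lowest of its group for Ncoa1 and Ncoa2 and the highest for Ncoa3. Per kb of exon, Ncoa3 made up 52.9 ± 2.04% of the p160 level in CARM1i, 51.6 ± 1.22% in KO and 51.5 ± 0.579% in WT.

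Kmt2c and Kmt2d, the longest of the 10 transcripts, encode paralogous scaffold-sized methyltransferases. Kmt2c (ENSMUSG00000038056.15; chromosome 5, 25271798 to 25498783, minus strand) had 1040, 1043 and 983 normalized read counts in CARM1i, 1008, 1036 and 1000 in KO, and 1014, 937 and 878 in WT. WT replicate 1 lay within the range of the treated libraries, and the groups overlapped. The log2 difference from WT was 0.11 ± 0.06 in KO (adjusted p = 0.1311) and 0.12 ± 0.06 in CARM1i (unadjusted p = 0.04903, adjusted p = 0.1605). The KO difference passed in 2 of 20 alternatives, without WT replicate 1 (0.16, adjusted p = 0.03465) and with quantile normalization (0.16, 0.03278).

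Kmt2d (ENSMUSG00000048154.17; chromosome 15, 98831669 to 98871204, minus strand) had 859, 974 and 867 normalized read counts in CARM1i, 1013, 1056 and 1025 in KO, and 980, 947 and 878 in WT. All 3 KO libraries were above all libraries of the other groups. CARM1i averaged 900.1 ± 64.1 and KO 1031 ± 22.6, and CARM1i was lower by the test (log2 difference -0.20 ± 0.06, 95% interval -0.32 to -0.07, adjusted p = 0.02028). The call between CARM1i and KO ended without CARM1i replicate 1 (-0.17, adjusted p = 0.08998), without CARM1i replicate 3 (-0.17, 0.05197), without KO replicate 2 (-0.18, 0.08122) and without KO replicate 3 (-0.20, 0.05484). Against WT, Kmt2d was not called in KO (0.14 ± 0.06, adjusted p = 0.06186) or in CARM1i (-0.06 ± 0.06, adjusted p = 0.5741). The KO difference from WT passed in 5 of 20 alternatives, among them without WT replicate 1 (0.18, adjusted p = 0.04321), without CARM1i replicate 2 (0.04197) and without CARM1i replicate 3 (0.04734).

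Because both genes of this pair were measured in every library, their balance can be read within a library. Kmt2d made up 45.7, 48.7 and 47.3% of the Kmt2c and Kmt2d level per kb in the CARM1i libraries, 50.6, 50.9 and 51.1% in those of KO, and 49.6, 50.7 and 50.4% in those of WT. The CARM1i shares lay under all 6 others. The difference was -3.61 percentage points from KO and -3.01 from WT, each with an exact two-sided permutation p of 0.1. That is the smallest p that 3 against 3 libraries can give, and adjusted over the 9 such share tests it was 0.45. None of the other 7 share tests, of Crebbp and of Ncoa3 in all comparisons and of Kmt2d in KO against WT, had groups that did not overlap.

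Kdm6a (ENSMUSG00000037369.17; X chromosome, 18162575 to 18279936, plus strand), the demethylase of the MLL3 and MLL4 complex, had 1081, 1101 and 1059 normalized read counts in CARM1i, 988, 1034 and 998 in KO, and 1065, 1133 and 1086 in WT. The 3 KO libraries were the lowest of the 9. The KO mean was 91.9% of the WT mean, a log2 difference of -0.12 ± 0.05 (95% interval -0.22 to -0.02). It passed by a small margin (adjusted p = 0.04937), and 7 of 20 alternatives kept the call. It ended without CARM1i replicate 1 (0.05676) or 2 (0.05673), without any 1 of the KO libraries (0.1346, 0.0509 and 0.1174), and without WT replicate 2 (0.1857) or 3 (0.07267). It also ended with the replicate block (adjusted p = 0.05502). In CARM1i the difference from WT was -0.02 ± 0.05 (95% interval -0.12 to 0.08, adjusted p = 0.8357). CARM1i was not called against KO, although the groups did not overlap (0.10 ± 0.05, adjusted p = 0.1374).

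Med12 encodes the Mediator kinase module subunit that activates cyclin C and CDK8. Med12 (ENSMUSG00000079487.11; X chromosome, 101274030 to 101297465, plus strand) had 1321, 1264 and 1234 normalized read counts in CARM1i, 1211, 1369 and 1218 in KO, and 1256, 1165 and 1313 in WT. The spread within groups was as wide as the spread between them. Log2 differences from WT were 0.02 ± 0.06 in KO (95% interval -0.10 to 0.14, adjusted p = 0.7661) and 0.03 ± 0.06 in CARM1i (-0.09 to 0.15, adjusted p = 0.7445). A processed transcript, Gm21986, shares 9.72% of the exon bases of Med12 on the same strand, so part of its reads may have gone uncounted or to that gene.

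Smarcc1 encodes BAF155, a core scaffold of the SWI/SNF chromatin remodellers, and had the clearest difference of the 10. Smarcc1 (ENSMUSG00000032481.16; chromosome 9, 110117708 to 110240178, plus strand) had 5706, 5673 and 5783 normalized read counts in CARM1i, 5017, 5099 and 4878 in KO, and 5555, 5753 and 5575 in WT. The KO libraries lay below all 6 others, and CARM1i and WT overlapped. KO averaged 4998 ± 112, or 88.8% of the 5628 ± 109 in WT (log2 difference -0.17 ± 0.03, 95% interval -0.24 to -0.11, adjusted p = 0.0002209). The call stood in all 20 alternatives, with differences of -0.21 to -0.15. CARM1i averaged 5721 ± 56.1, or 102% of WT (0.02 ± 0.03, 95% interval -0.04 to 0.09, adjusted p = 0.6631). The direct test put CARM1i above KO by 0.19 ± 0.03 (adjusted p = 0.0001544), and it passed in all 20 alternatives too. Dhx30, on the opposite strand, shares 1.57% of the exon bases of Smarcc1, and the strand setting of the counting is not given in the sources used here.

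**Figure D2:**
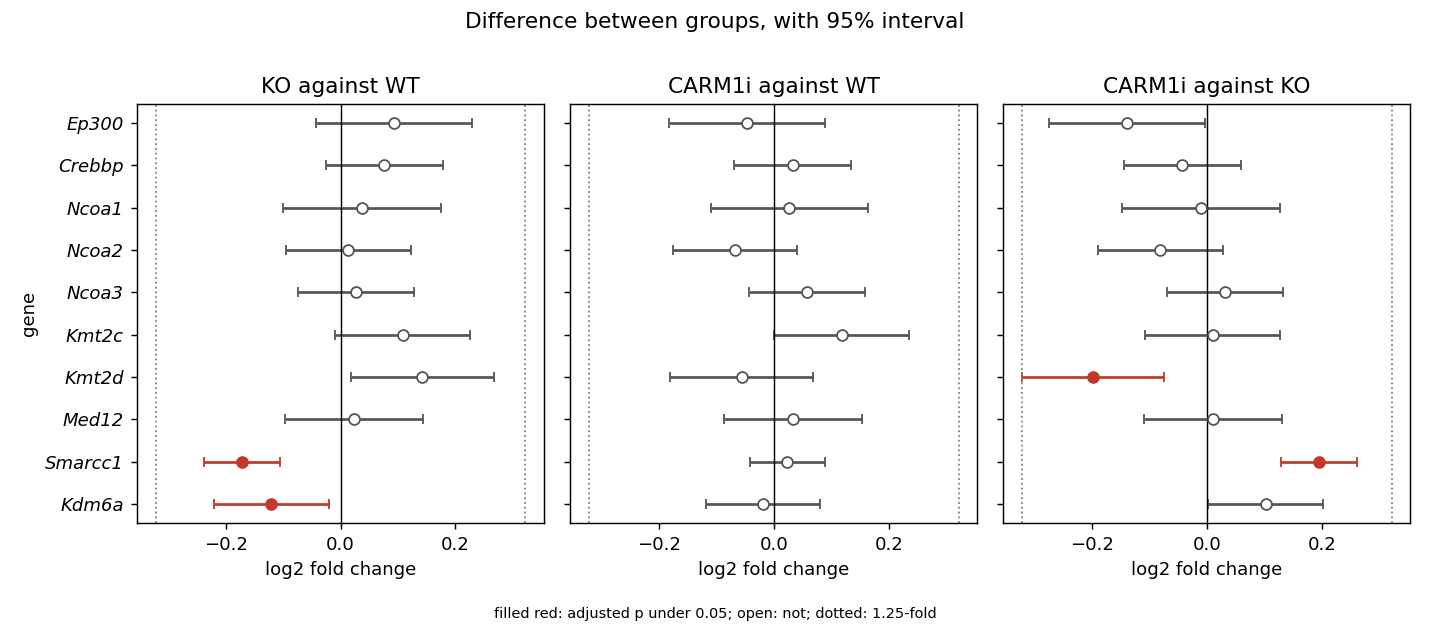
Log2 fold change (x axes) of each of the 10 genes (rows) in KO against WT, CARM1i against WT and CARM1i against KO, with 95% intervals from limma (9 libraries, n = 3 a group) and dotted lines at 1.25-fold. Filled points passed an adjusted p under 0.05, and 29 of the 30 intervals lie between the dotted lines.

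A p that misses the threshold does not show that a gene is level, so the intervals were read as well. In KO against WT the 95% interval lay within 1.25-fold in either direction for 10 of 10 members, where it did for 42.3% of all genes tested. In CARM1i against WT it did for 10 of 10 members and for 54.2% of all genes. In CARM1i against KO it did for 9 of 10 and for 52.4% of all genes, and the exception was Kmt2d, whose interval reached 0.799-fold. The 1.25-fold limit was chosen after the values were seen, and intervals narrow with read depth, so these counts describe the 10 genes at their level. The members' median absolute log2 difference was 0.08 in KO and 0.04 in CARM1i, beside 0.18 and 0.11 over all genes tested. Groups did not overlap for 3 of 10 members in KO against WT, 1 higher (26.7% of all genes) and 2 lower (25.9%), where 52.6% of all genes did not overlap. In CARM1i against WT all 10 members overlapped, where 33.4% of all genes did not, 16.7% higher and 16.7% lower. In CARM1i against KO groups did not overlap for 3 of 10, with Smarcc1 and Kdm6a higher (18.3% of all genes) and Kmt2d lower (18.6%), where 36.9% did not. The count of 0 calls in CARM1i against WT was 0 with edgeR and with DESeq2 as well, and 1 member, Kmt2c, had an unadjusted p under 0.05 by limma (30.8% of all genes). Where all cells of a culture are sequenced together, fewer cells of a type and less RNA per cell cannot be told apart.

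The level per length ordered the 10 genes from Smarcc1 down to Kmt2d. Counts per kb of exon averaged 695.7 over the 9 libraries for Smarcc1, which is above 83.8% of all genes tested. Next came Med12 (164), Ncoa3 (142), Kdm6a (127), Crebbp (108), Ep300 (83.4), Ncoa2 (68), Ncoa1 (63.5), Kmt2c (48.9) and Kmt2d (47.9), against a median of 149 over all genes. Smarcc1 stood 4.25-fold over Med12. Most neighbours in this order kept it in 9 of 9 libraries. Kmt2c and Kmt2d did not differ beyond their spread over the 9 libraries. Kmt2c was higher in 4 of 9, namely every CARM1i library and WT replicate 1, and lower in every KO library. The ranges over libraries of Ep300 and Ncoa2, and of Ncoa2 and Ncoa1, also overlapped, but within each of the 9 libraries Ep300 was above Ncoa2 and Ncoa2 above Ncoa1. Lengths are of all annotated exons of a gene joined, 7.7 kb for Med12 to 20.3 kb for Kmt2c, and exons that these cells do not use lower a value.

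**Figure D3:**
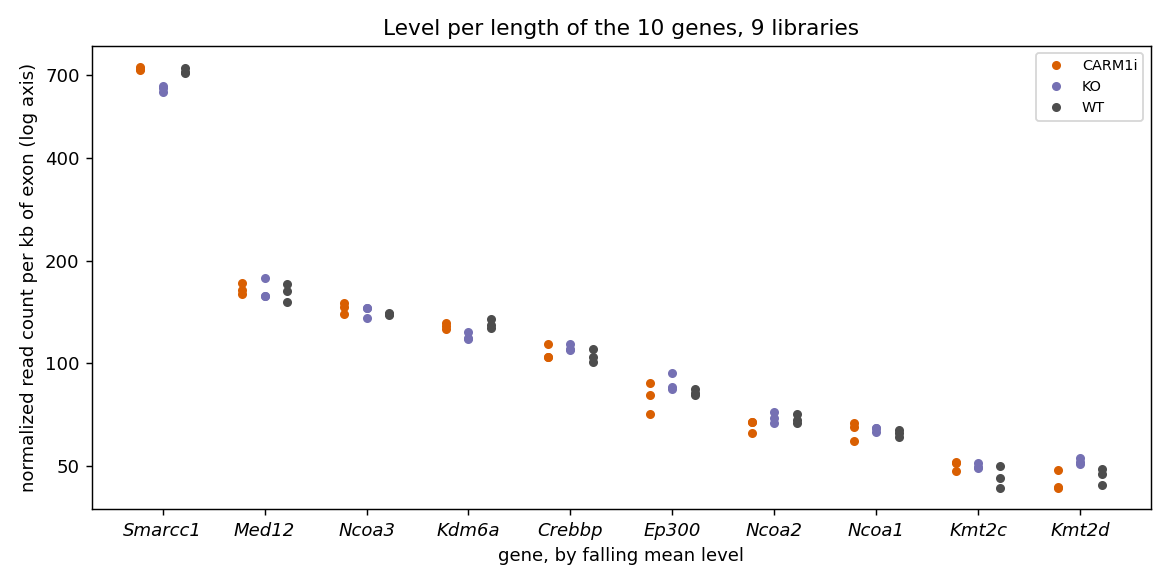
Normalized read count per kb of exon (y axis, log scale) for the 10 genes ordered by their mean (x axis), with a point per library in the CARM1i, KO and WT groups. Smarcc1 lies between 623 and 738, above the other 9 genes, and Kmt2c and Kmt2d share the lowest range.

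Libraries also moved several members together inside a group. In KO replicate 2, 9 of the 10 genes were at their highest of the 3 KO libraries, all but Ncoa1, where 31.3% of all genes were at their highest there. In KO replicate 1, 7 of 10 were at their lowest of the group, where 33.2% of all genes were. In CARM1i replicate 3, 6 of 10 were lowest (36.9% of all genes), namely Ep300, Ncoa1, Ncoa2, Kmt2c, Med12 and Kdm6a. These shifts were small, with member medians of 0.04, -0.03 and -0.05 on the log2 scale in those 3 libraries. The 2612 tested genes with at least 7.7 kb of exon, the length of the shortest member, had medians within 0.01 of their group means in the same libraries. Across the 9 libraries, deviations from the group mean were most alike for Ncoa1 and Ncoa2 (Pearson r = 0.85), Ep300 and Ncoa2 (0.85) and Ncoa2 and Med12 (0.83), and most opposed for Ncoa3 and Kmt2d (-0.52). These correlations rest on 9 libraries that share preparation and depth, and they are given as a description.

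**Figure D4:**
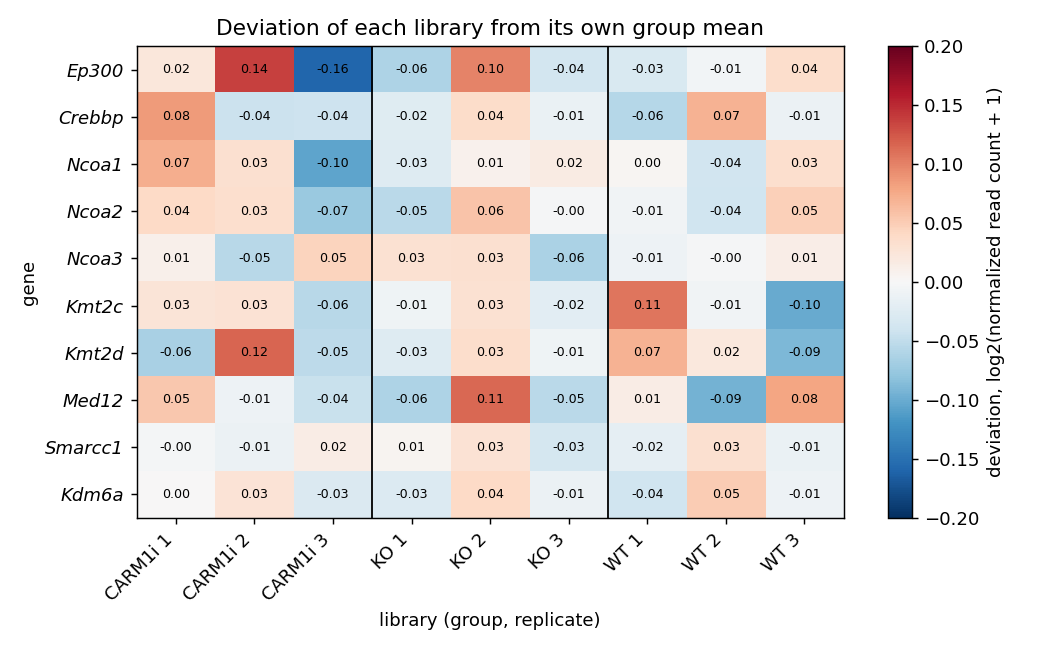
Deviation of each library (columns, by group and replicate) from its own group mean for each of the 10 genes (rows), on the log2(normalized read count + 1) scale, red above and blue below. The KO 2 column is red in all rows, and the CARM1i 3 column is blue in most, with Ep300 at -0.16.

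By the rule for likeness, the genes whose log2 values followed each member called against WT best over the 9 libraries were taken from 9999 protein-coding autosomal genes with a mean of at least 100, predicted models left out. For Smarcc1 they were Lrrc20 (r = 0.96), the splicing factor gene Hnrnpa1 (0.96) and Fndc4 (0.95). Hnrnpa1 averaged 14098 ± 366 normalized read counts in CARM1i, 11466 ± 44.4 in KO and 14358 ± 668 in WT. For Kdm6a they were Polh, the translesion DNA polymerase eta gene (0.97), Tbl1xr1 (0.96) and Ppp2r5c (0.96). Polh averaged 673 ± 62.1 in CARM1i, 541 ± 62.9 in KO and 701 ± 61.5 in WT. With so many candidates, values this high are a ranking and carry no p.

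Smarcc1 was then set beside the other SWI/SNF subunits. Of 23 measured, 13 fell in KO against WT and 1 rose, where 20.5% of all genes fell and 21.4% rose, with a median log2 difference of -0.15 beside 0.00 over all genes (9 to 15 fell in the alternatives). Actl6a, which encodes the actin-related subunit BAF53A of proliferating progenitors, had 1465 ± 62.9 in KO and 1917 ± 53.9 in WT (-0.39 ± 0.04, adjusted p = 1.193e-06). Smarcb1, the SNF5 subunit, fell by 0.26, the polybromo subunit Pbrm1 by 0.20 and the neural subunit Dpf1 by 1.07, to 75 ± 10.4 in KO against 158 ± 9.45 in WT. Smarca4, which encodes the BRG1 ATPase, was at 0.05 ± 0.03 and Smarcc2, the paralog of Smarcc1, at -0.06 ± 0.03, and neither passed. In CARM1i against WT, 10.5% of all genes rose and 8.59% fell. Of the 23 subunits, 1 rose (Brd7, 0.15 ± 0.04) and 1 fell (Actl6a, -0.18 ± 0.04). Without CARM1i replicate 3, these counts were 2 and 2, as without WT replicate 3. CARM1i was higher than KO for 9 of 23 and lower for 1, where 12.1% of all genes were higher and 11.5% lower. Over the alternatives, 6 to 9 were higher and 0 to 1 lower.

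Proliferation genes also differed between these groups, and 8 of them, including Mki67 and Top2a, were summed. Their summed level was 30997 to 32932 in CARM1i, 18834 to 19591 in KO and 42288 to 44150 in WT. All 8 fell in each treatment against WT, where 20.5% of all genes fell in KO and 8.59% in CARM1i. Smarcc1 was at 88.8% of its WT mean in KO and at 102% in CARM1i. The part of proliferation genes in the lower Smarcc1 and SWI/SNF values in KO was not tested.

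Of 13 other COMPASS and MLL3/4 subunits measured, 4 fell in KO against WT (20.5% of all genes) and 9 did not pass, with a median log2 difference of -0.10. Paxip1, which encodes the PTIP subunit specific to the MLL3 and MLL4 complexes, fell to 1142 ± 40.8 in KO, against 1479 ± 18.7 in WT (-0.37 ± 0.05, adjusted p = 3.097e-06), and was 0.29 ± 0.05 higher in CARM1i than in KO (adjusted p = 0.0001394). The core subunit Ash2l fell by 0.19 in KO. In CARM1i 1 of 13 fell, where 8.59% of all genes did, the MLL1 gene Kmt2a (-0.17 ± 0.05, adjusted p = 0.01472), a call that ended without CARM1i replicate 1.

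In Mediator, 2 of 26 core subunits rose and 4 fell in KO (median -0.02), shares below the 21.4% and 20.5% of all genes that rose and fell. The tail subunit Med23 fell by 0.24 to 1511 ± 31.9 in KO, against 1790 ± 53.4 in WT, and Med28 (0.19 ± 0.04) and Med29 (0.24 ± 0.05) rose. Of the 6 other kinase module genes only Med12l, the low-level paralog of Med12, passed in KO, at 7.46 ± 1.04 against 19.8 ± 1.69 in WT. In CARM1i against WT 1 of the 26 core subunits rose, Med29 (0.15 ± 0.05), where 10.5% of all genes rose. That call ended in 9 of 20 alternatives, among them without CARM1i replicate 1 or 2 and without WT replicate 1 or 2. Of 6 secondary coactivators of the p160 proteins, 2 rose and 3 fell in KO, beside 21.4% and 20.5% of all genes. The 3 that fell were Carm1, the gene deleted in KO, Prmt1 (by 0.19) and Ccar1 (by 0.17). Calcoco1, the coiled-coil coactivator CoCoA, was 1 of the 2 that rose in KO (0.26 ± 0.04, adjusted p = 3.323e-05). Calcoco1 was also the 1 of the 6 that rose in CARM1i (0.20 ± 0.04, adjusted p = 0.001132), where 10.5% of all genes rose.

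Of 18 measured factors that bring CBP and p300 to DNA, 5 rose and 3 fell in KO, and 2 rose and 2 fell in CARM1i against WT. These shares are near those of all genes, of which 21.4% rose and 20.5% fell in KO, and 10.5% rose and 8.59% fell in CARM1i. Creb1, the factor for which CBP is named, fell to 1503 ± 84.9 in KO, against 1799 ± 36 in WT (-0.26 ± 0.05, adjusted p = 0.0002532), and was 0.20 ± 0.05 higher in CARM1i than in KO (adjusted p = 0.005132). In CARM1i, leaving out a library gave 1 to 3 of the 18 higher and 0 to 2 lower, with 1 higher and 0 lower without WT replicate 1. In KO 3 rose without KO replicate 1, without KO replicate 3 or without WT replicate 2.

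**Figure D5:**
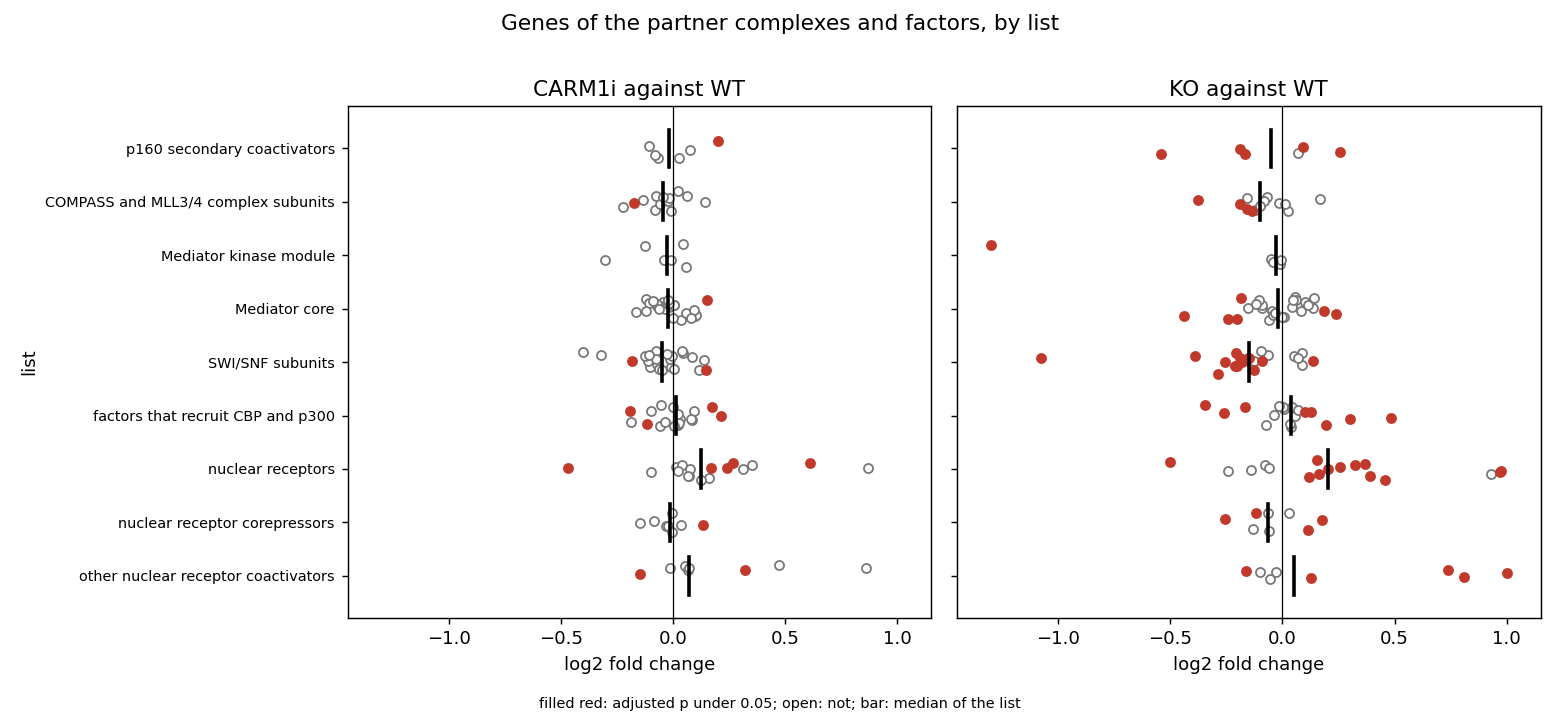
Log2 fold change (x axes) of the genes in 9 lists of partner complexes, recruiting factors and receptors (rows) in CARM1i against WT and in KO against WT. Each point is a gene, filled where the adjusted p was under 0.05, and the bar is the list's median; the SWI/SNF median lies at -0.15 in KO and -0.05 in CARM1i.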

How the data were processed

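Poly(A) RNA libraries were made with a stranded kit per the labels' protocols. Per the submitters' processing notes, the build was mm10 and the tools included DESeq 1.18.0, HTSeq 0.6.0 and TopHat2 2.0.10. The strand setting and annotation release were not given in the sources used here. What the authors deposited is read counts divided by a size factor per library, a normalized signal; 100% of values in each of the 9 columns were whole multiples of 1 step (tolerance 1e-06 of a read), which gave the reads back.

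IDs were matched without version to GENCODE M21 (16413 of 16428). Genes with a mean of at least 10 were tested with limma 3.58.1 (R 4.3.3, intensity trend) on log2(value + 1) over all 9 libraries with 3 group means, with Benjamini-Hochberg adjustment over 14560 genes. Fold changes are on that scale. Errors are SD over 3 libraries or SE of the fit, and intervals are 95% and unadjusted.

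The 10 members, the lists and the tests were chosen with earlier results of these data known. Named list genes are up to 4 a list and comparison by smallest adjusted p, and not all are used; Smarca4 and Smarcc2 were looked up after their values were seen. The 20 alternatives include count tests on the reads given back (DESeq2 1.42.0, edgeR 4.0.16), other filters, scalings and pseudocounts, a replicate block and leaving out each library. On those reads edgeR called 3119 genes higher and 3031 lower in KO against WT, beside 3114 and 2986 by limma, and 1550 and 1271 in CARM1i against WT, beside 1533 and 1251. The fit was tested on simulated data. Replicates differed by a chi-square of 2.44 to 7.97 per gene, which is more than sampling noise.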

Additional observations from a re-analysis of the deposited data

Results flagged for a closer look

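Among the 10 coactivator genes and Carm1, CARM1i and KO differed by the direct test for 3, where 23.6% of all genes passed. Partner genes that also passed it, such as Paxip1 and Creb1, are given above. The CARM1i minus KO log2 difference was 0.19 for Smarcc1, -0.20 for Kmt2d and 0.48 for Carm1, the gene deleted in KO. CARM1i and KO did not overlap for any of the 3, where 36.9% of all genes did not. The 3 were picked by the direct test, so this adds no separate support. The Smarcc1 and Carm1 differences passed in all 20 alternatives and that of Kmt2d in 15 of 20.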

How the results depend on the processing

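Smarcc1 kept its calls in KO against WT and in CARM1i against KO in all 20 alternatives. The count of members lower in KO, 2, was 1 with no filter, with quantile normalization, with DESeq2, with a pseudocount of 10, with only the compared groups and with the replicate block, and 1 to 2 when a library was left out, since Kdm6a missed the threshold. The count higher in KO, 0, was 2 with quantile normalization (Kmt2c and Kmt2d) and 1 with only the compared groups (Kmt2d), and 0 to 2 when a library was left out. The count lower in CARM1i against KO, 1, was 0 in limma without the trend and 0 to 2 when a library was left out (Ep300 joined Kmt2d without CARM1i replicate 2). Over all genes, limma without the trend called 1797 in CARM1i against WT, 1018 higher and 779 lower, and 805 (without WT replicate 2) to 1208 were lower when a library was left out.

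Differences near 0 changed sign in some settings, none of them called. Quantile normalization gave -0.0067 for Smarcc1 in CARM1i against WT, and -0.0141 for Kmt2c and -0.0035 for Med12 in CARM1i against KO, and rescaling to a common total gave -0.0031 for Ncoa2 for KO set against WT. When a library was left out, log2 differences ran from -0.0146 to 0.0411 for Ncoa2 and from -0.0332 to 0.0638 for Med12 in KO against WT. Against WT, CARM1i differences ran from -0.1152 to 0.0326 for Ep300, -0.0094 to 0.0672 for Crebbp, -0.009 to 0.0795 for Ncoa1, -0.013 to 0.0733 for Med12 and -0.0388 to 0.0064 for Kdm6a. In CARM1i against KO they ran from -0.0465 to 0.042 for Ncoa1, -6e-04 to 0.0584 for Ncoa3, -0.0051 to 0.0372 for Kmt2c and -0.0211 to 0.067 for Med12.

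Same-numbered libraries did not deviate together (correlations of -0.087 to 0.0268 over genes), so the numbers were treated as names; the replicate block changed the count of members only for Kdm6a. The causes of these changes were not tested.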

Other observations

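Nuclear receptors bind hormones and other ligands and recruit the p160 coactivators. Of 17 nuclear receptor genes tested, of 19 in the table, 11 rose and 1 fell in KO against WT (median 0.20 on the log2 scale, beside 0.00 over all genes), where 21.4% of all genes rose and 20.5% fell. In CARM1i against WT 4 rose and 1 fell (median 0.13), where 10.5% of all genes rose and 8.59% fell. Without WT replicate 2, 2 rose in CARM1i. The paired thyroid hormone receptor genes went opposite ways. Thrb averaged 222 ± 21 normalized read counts in CARM1i, 286 ± 16.8 in KO and 145 ± 13 in WT, and Thra averaged 585 ± 4.86 in CARM1i, 572 ± 41.4 in KO and 810 ± 51.7 in WT (SD, n = 3 each). Each passed in both treatments and in all alternatives (adjusted p = 0.0005934 for Thrb and 6.613e-05 for Thra in CARM1i). Nr2f1, the orphan receptor COUP-TFI, rose by 0.27 ± 0.04 in CARM1i and 0.39 ± 0.04 in KO.

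Of 8 corepressor genes, 2 rose and 2 fell in KO, where 21.4% of all genes rose and 20.5% fell. A rise in CARM1i was called for 1 of the 8, where 10.5% of all genes rose. Gps2, a subunit of the NCoR complex, fell by 0.26 in KO. Among 8 other coactivators named for nuclear receptors, 4 rose and 1 fell in KO, beside 21.4% and 20.5% of all genes. Counts in CARM1i were 1 higher and 1 lower, where 10.5% of all genes rose and 8.59% fell. The fall in CARM1i was that of Ncoa5 (-0.15 ± 0.05), a call that ended in 7 of 20 alternatives, among them without CARM1i replicate 1 or 3 and without WT replicate 1 or 2. Ncoa7, which is not a p160 gene, averaged 2154 ± 254 in CARM1i, 2867 ± 123 in KO and 1719 ± 67.1 in WT. Its difference from WT was 0.32 ± 0.06 in CARM1i and 0.74 ± 0.06 in KO, and the CARM1i call ended in limma without the intensity trend.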
